A study of Mus musculus with 14 samples.

Results

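The Slc22 family codes for membrane carriers that move organic cations, organic anions and carnitine in and out of cells. The genes described here are the 9 listed members, Slc22a3, Slc22a5, Slc22a7, Slc22a18, Slc22a23, Slc22a26, Slc22a27, Slc22a28 and Slc22a30. Each was to be read from the probe with the highest mean over all arrays among probes that name that gene alone. This gave a value for 7 of the 9, out of 19938 genes tested and 23 Slc22 genes among them. Slc22a3, a carrier of organic cations, was not analysed here, because no probe was listed under its name. Slc22a28 was named only on a probe that it shares with Slc22a29 and Slc22a30, so it has no value of its own. The list was drawn up with earlier results from the same arrays known, so the members' values are given as a description, with standard errors and no p-value.

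Liver RNA was measured on 14 Affymetrix arrays, all from female mice of 14 months. The arrays fell into 3 groups, 3 from wild-type C57BL/6 mice, 5 from Mdr2-KO mice and 6 from Mdr2-KO/IL6-KO mice, called the double knockout here. Mdr2, gene symbol Abcb4, is the canalicular pump that puts phospholipid into bile, and livers without it develop bile duct injury, scarring and, with age, tumours. Il6 codes for the cytokine interleukin 6, which drives the hepatic acute phase response. The tissue was tumour-free liver. The strain background of both knockout groups is not given in the sources used here, so genotype and strain cannot be told apart. Nothing in the labels says whether each array is 1 animal or a pool. The p-values therefore set group differences against the spread between arrays within groups, which need not be the spread between animals. Values are log2 signals, so a difference of 1 is a doubling, and a level belongs to its probe and was not set against the level of another gene.

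The arrays had medians between 6.15 and 6.24, and no 2 of them held the same values. Abcb4 signal fell by 1.36 (SE 0.12, adjusted p = 5.09e-06) in Mdr2-KO and by 1.32 (SE 0.11, adjusted p = 4.84e-06) in the double knockout against wild type. Il6 averaged 3.22, 3.07 and 3.48 in the wild-type, single-knockout and double-knockout groups, under the background of 5.48, so it does not check the second deletion. That background is the 95th percentile of the mean signals of 1027 olfactory receptor genes, and 29% of all genes lay under it. The 12 hepatocyte markers, such as Alb and Ttr, summed to log2 levels of 16.15 to 16.20 in wild type, 16.17 to 16.30 in Mdr2-KO and 16.11 to 16.26 in the double knockout. These are bulk samples, in which fewer cells of a type and less RNA per cell cannot be told apart.

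Carriers of the Slc22 family sit in the plasma membrane and work without hydrolysing ATP, by facilitated diffusion, exchange or cotransport with sodium. In the liver they take up drugs, hormone conjugates and metabolites from blood into hepatocytes. In rodents several anion-carrier genes lie side by side in a cluster with no one-to-one human counterpart, and the sexes express some of them at different levels. In the reference genome (GRCm38.p6) this cluster runs in the order Slc22a19, Slc22a26, Slc22a27, Slc22a28, Slc22a29, Slc22a30, Slc22a8 and Slc22a6 on chromosome 19. The last 2, Slc22a8 and Slc22a6, are the classic kidney anion carriers.

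The 250 bases before the transcription start are shown for the 4 cluster genes of the list, because Slc22a26 and Slc22a30 had unlike patterns across the groups. Slc22a28 has no value of its own, so no pattern is given for it. The sequences are those of RefSeq on GRCm38.p6, all on the minus strand, at chr19:7802668-7802917 for Slc22a26, chr19:7966028-7966277 for Slc22a27, chr19:8131983-8132232 for Slc22a28 and chr19:8405106-8405355 for Slc22a30. Capitals mark a match to TTCNNNGAA, the letters bound by STAT factors, or to TGACNNNGC, the core of the antioxidant response element, searched on both strands.
Slc22a26: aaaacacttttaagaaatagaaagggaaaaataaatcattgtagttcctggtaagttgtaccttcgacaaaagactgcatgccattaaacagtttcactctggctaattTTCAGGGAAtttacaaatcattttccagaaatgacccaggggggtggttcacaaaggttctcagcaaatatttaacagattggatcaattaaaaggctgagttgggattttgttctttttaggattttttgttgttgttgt
Slc22a27: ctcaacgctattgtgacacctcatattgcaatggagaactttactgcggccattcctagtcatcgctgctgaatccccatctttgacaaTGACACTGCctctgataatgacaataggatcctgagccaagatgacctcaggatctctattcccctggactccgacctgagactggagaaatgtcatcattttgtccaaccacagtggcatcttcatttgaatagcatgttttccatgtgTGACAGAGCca
Slc22a28: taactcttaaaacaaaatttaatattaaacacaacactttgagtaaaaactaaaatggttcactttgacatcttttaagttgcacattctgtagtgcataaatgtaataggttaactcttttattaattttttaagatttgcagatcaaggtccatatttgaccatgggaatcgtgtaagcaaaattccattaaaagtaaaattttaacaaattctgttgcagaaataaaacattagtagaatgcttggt
Slc22a30: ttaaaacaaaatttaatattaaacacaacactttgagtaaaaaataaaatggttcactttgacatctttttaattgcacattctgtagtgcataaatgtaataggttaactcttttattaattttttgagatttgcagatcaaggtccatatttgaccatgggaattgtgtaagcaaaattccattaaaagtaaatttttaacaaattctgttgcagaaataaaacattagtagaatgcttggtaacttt

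The windows of Slc22a28 and Slc22a30 were near copies of each other, with 238 identical positions in 256 aligned columns (93%). The other 5 pairs had between 44% and 51.8% identical columns. Slc22a26 held 1 STAT-type match, TTCAGGGAA, at -141 to -133 from the start, and such letters occurred in 7.02% of 32851 promoters of the same length. Slc22a27 held 2 antioxidant-type matches, TGACACTGC at -161 to -153 and TGACAGAGC at -11 to -3, and 10.2% of promoters held at least 1. No window of the 4 held CAAAGTCCA, the letters of an HNF4 site (0.384% of promoters), or TATAAA (12.4%). The 2 motif types did not overlap, and a match here describes letters only.

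Slc22a26, an anion-carrier gene of the cluster, had the largest differences among the 7 members. Its signal was 11.39, 11.04 and 11.28 on the wild-type arrays, and 8.80, 8.54, 10.21, 9.73 and 9.23 on the Mdr2-KO arrays. On the double-knockout arrays it ran from 7.50 through a median of 8.44 to 8.78. Every wild-type array lay above every knockout array, whereas the 2 knockout groups overlapped, with Mdr2-KO array 2 inside the double-knockout range and array 1 just above it.

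The Slc22a26 means were 11.24 ± 0.18 (SD, n = 3), 9.30 ± 0.68 (SD, n = 5) and 8.38 ± 0.45 (SD, n = 6). Against wild type the signal fell by 1.93 (SE 0.32) in Mdr2-KO, which is 3.82-fold, and it fell by 2.86 (SE 0.31) in the double knockout, which is 7.25-fold. Both comparisons use the same 3 wild-type arrays. The double knockout was lower than Mdr2-KO by 1.9-fold (difference -0.93, SE 0.27, 95% interval -1.49 to -0.36), and this passed the threshold of adjusted p 0.05 in the fit over all genes. It no longer passed when any 1 of wild-type array 1, Mdr2-KO arrays 1, 3, 4 and 5 or double-knockout arrays 1, 2, 4, 5 and 6 was left out. The difference was then between -1.05 and -0.70. The call was also lost under trend and robust moderation (-0.93), with array weights (-0.78) and with only the 2 groups compared (-0.93).

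Slc22a30, at the other end of the rodent group of the cluster, had another pattern. Its signal was 9.90, 9.70 and 9.84 in wild type and 10.29, 10.56, 10.05, 10.59 and 10.29 in Mdr2-KO. On the double-knockout arrays it ran from 9.26 through 9.67 to 9.91. All 5 Mdr2-KO arrays were above every array of both other groups, and those 2 groups overlapped.

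Slc22a30 rose by 0.54 (SE 0.14, 1.46-fold) in Mdr2-KO against wild type, from 9.81 ± 0.10 (SD, n = 3) to 10.36 ± 0.23 (SD, n = 5). It averaged 9.66 ± 0.24 (SD, n = 6) in the double knockout, where it was 1.62-fold lower than in Mdr2-KO (difference -0.70, SE 0.12). Both differences kept their side of the threshold in all 22 alternative fits. The rise of 1.46-fold falls short of a required fold of at least 1.5. The double knockout and wild type differed by -0.16 (SE 0.14, 95% interval -0.45 to 0.14) and did not pass.

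Slc22a27, which lies between them, varied widely inside each group. Its signal was 9.21 and 8.60 on wild-type arrays 1 and 2, with the third between them, and 7.79, 8.50, 8.75, 9.19 and 8.71 in Mdr2-KO. The double-knockout arrays ran from 7.87 through 8.14 to 8.85. All 3 groups overlapped, and Mdr2-KO held both the lowest array of all 14 and the next to highest.

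The Slc22a27 means were 8.94 ± 0.31 (SD, n = 3), 8.59 ± 0.51 (SD, n = 5) and 8.28 ± 0.43 (SD, n = 6). None of its 3 differences passed. Against wild type they were -0.35 (SE 0.28) in Mdr2-KO and -0.66 (SE 0.27, 95% interval -1.23 to -0.09) in the double knockout, and between the knockout groups -0.31 (SE 0.23).

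The probe shared by Slc22a28, Slc22a29 and Slc22a30 read 9.81, 9.69 and 9.66 in wild type and 9.88, 9.91, 9.56, 10.02 and 9.73 in Mdr2-KO. Its double-knockout values ran from 8.91 through 9.43 to 9.64. All 6 of those arrays lay below all wild-type arrays, narrowly at the nearest pair (9.64 and 9.66), but overlapped Mdr2-KO. Wild type and Mdr2-KO also overlapped on this probe (means 9.72 and 9.82), unlike on the probe that names Slc22a30 alone. Of all genes tested, 15.1% had no overlap between the double knockout and wild type. The signal of this probe cannot be assigned to any of the 3 genes. Genes of this cluster are close relatives, so probes that name 1 of them may still take signal from another.

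**Figure D1:**
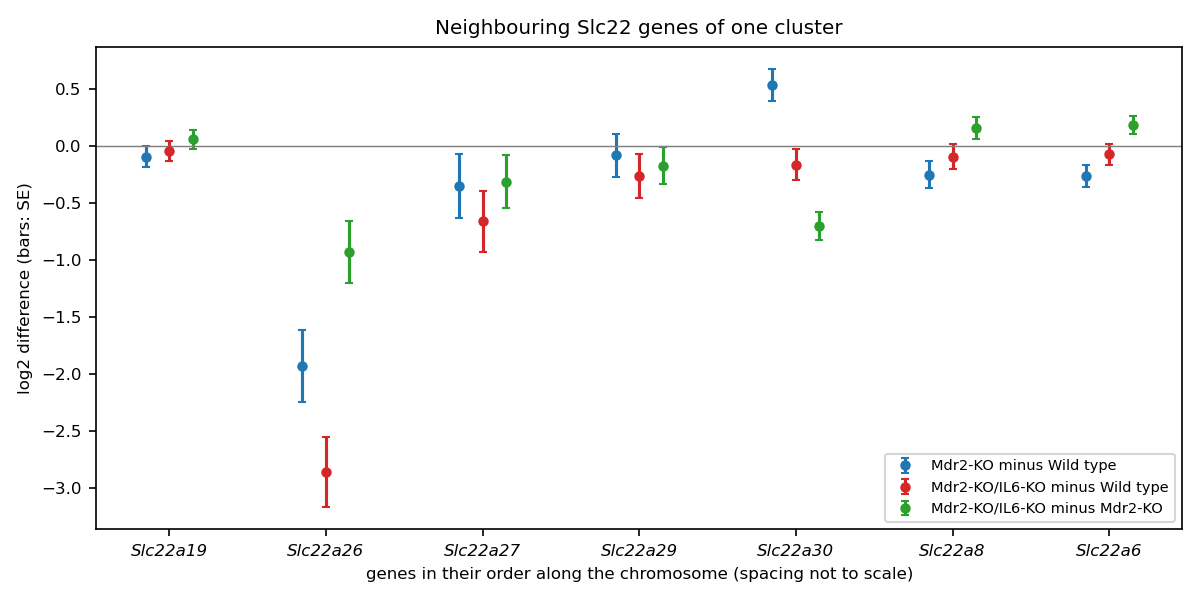
Log2 differences with SE (vertical axis) for the 7 cluster genes with a probe of their own, set in chromosomal order with spacing not to scale. Slc22a26 lies far below 0 against wild type in both knockouts (-1.93 and -2.86), Slc22a30 lies above 0 in Mdr2-KO (0.54), and Slc22a19, Slc22a29, Slc22a8 and Slc22a6 lie within 0.26 of 0.

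The neighbours outside the list moved little. Slc22a29 had means of 6.47 (wild type), 6.38 (Mdr2-KO) and 6.21 (double knockout), and Slc22a19 lay under background at 3.34 to 3.43. Slc22a8 and Slc22a6 differed from wild type by -0.25 (SE 0.12, adjusted p = 0.13) and -0.26 (SE 0.10, adjusted p = 0.0614) in Mdr2-KO. None of these passed in any of the 3 comparisons.

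Slc22a7 codes for an anion carrier of the hepatocyte's blood-facing membrane. Its signal was 7.04, 6.44 and 6.52 in wild type and 6.99, 7.03, 8.55, 6.86 and 6.78 in Mdr2-KO. On the double-knockout arrays it ran from 5.96 through 6.45 to 6.77. All Mdr2-KO arrays lay above all double-knockout arrays, by a gap of 0.01 at the nearest pair, and Mdr2-KO array 3 stood far above every other array.

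The Slc22a7 means were 6.67 ± 0.33 (SD, n = 3), 7.24 ± 0.74 (SD, n = 5) and 6.41 ± 0.36 (SD, n = 6). No difference passed the threshold. The double knockout minus Mdr2-KO was -0.83 (SE 0.27, 95% interval -1.40 to -0.25), and -0.50 without Mdr2-KO array 3. Mdr2-KO minus wild type was 0.57 (SE 0.33), and 0.24 without that array.

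**Figure D2:**
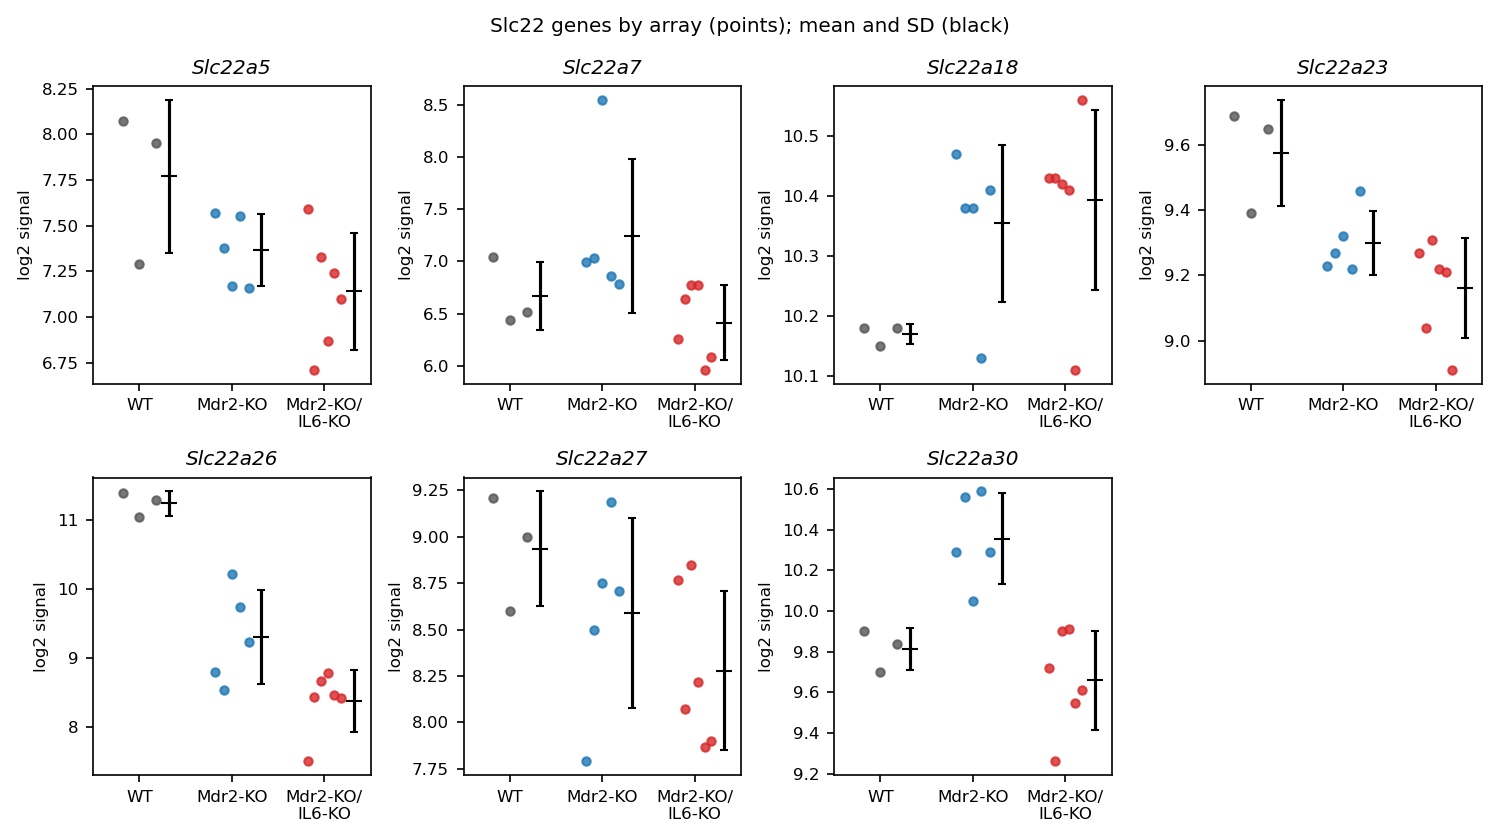
Log2 signal (vertical axis, a scale of its own in each panel) of the 7 members on the 14 arrays, with 1 point per array and the mean ± SD in black. Slc22a26 is above 11 on the 3 wild-type arrays and below 10.3 on all knockout arrays, Slc22a30 is highest in Mdr2-KO, and Slc22a7 has 1 Mdr2-KO array at 8.55.

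Slc22a5 codes for the sodium-dependent carrier that brings carnitine into cells, where it is needed to carry long-chain fatty acids into mitochondria. Its signal was 8.07, 7.29 and 7.95 in wild type and 7.57, 7.38, 7.17, 7.55 and 7.16 in Mdr2-KO. The double-knockout arrays ran from 6.71 through 7.17 to 7.59. Wild-type array 2 lay inside the knockout ranges, and the other 2 wild-type arrays were above all knockout arrays.

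Slc22a5 averaged 7.77 ± 0.42 (SD, n = 3), 7.37 ± 0.20 (SD, n = 5) and 7.14 ± 0.32 (SD, n = 6). It fell by 0.63 (SE 0.19, 1.55-fold) in the double knockout against wild type. That call was lost without wild-type array 1 (-0.48) or 3 (-0.54), Mdr2-KO array 2 (-0.63) or double-knockout array 2 (-0.54), 4 (-0.57) or 6 (-0.62). It was also lost under trend and robust moderation and with only the 2 groups compared (-0.63 in both). Mdr2-KO minus wild type was -0.40 (SE 0.19) and did not pass, but was -0.64 and passed without wild-type array 2.

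Among the 9 other measured genes of carnitine synthesis and the carnitine shuttle, 4 fell and none rose in Mdr2-KO against wild type, with a median difference of -0.34 beside -0.07 over all genes. Without wild-type array 3 the count was 2. Aldh9a1, an enzyme of carnitine synthesis, fell by 0.64 (SE 0.10, adjusted p = 0.000501), and Slc16a9, a carrier linked to carnitine efflux, by 0.57 (SE 0.09, adjusted p = 0.000854).

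In the double knockout 3 of the 9 carnitine genes fell against wild type (median -0.23 beside -0.02), and 5 did without double-knockout array 1. Aldh9a1 fell by 0.56 (SE 0.09, adjusted p = 0.00113). Bbox1, which catalyses the last step of carnitine synthesis, fell by 0.41 (SE 0.09, adjusted p = 0.0101). Cpt1a, the entry enzyme of mitochondrial fatty acid uptake, fell by 0.37 (SE 0.09, adjusted p = 0.0121), with an adjusted p of 0.0549 without wild-type array 3.

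Between the knockout groups 3 of the 9 carnitine genes were higher in the double knockout, and none was lower. After centring on array medians 1 was higher and 1 lower, and 1 passed when Mdr2-KO array 1 or 3 or double-knockout array 5 was left out. Slc16a9 was higher by 0.40 (SE 0.08, adjusted p = 0.00679), a call lost when the mean of its probes was used. Slc22a5 itself differed by -0.23 (SE 0.16, 95% interval -0.57 to 0.11) in that comparison and did not pass.

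Slc22a23 is an orphan member, for which no firm substrate is known. Its signal was 9.69, 9.39 and 9.65 in wild type and 9.23, 9.27, 9.32, 9.22 and 9.46 in Mdr2-KO. Its double-knockout values ran from 8.91 through 9.21 to 9.31. All double-knockout arrays were below all wild-type arrays, and Mdr2-KO array 5 overlapped wild type.

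Slc22a23 averaged 9.58 ± 0.16 (SD, n = 3), 9.30 ± 0.10 (SD, n = 5) and 9.16 ± 0.15 (SD, n = 6). It fell by 0.42 (SE 0.09, 1.34-fold) in the double knockout, and by 0.37 and no longer past the threshold without wild-type array 1. Mdr2-KO minus wild type was -0.28 (SE 0.10) and did not pass, but passed without wild-type array 2 (-0.37), Mdr2-KO array 5 (-0.32) or double-knockout array 6 (-0.28), with array weights (-0.32) and when the dimmest genes were left out (-0.28). The knockout groups differed by -0.14 (SE 0.08), which did not pass.

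Slc22a18 is an imprinted gene, expressed mainly from the maternal copy, between Cdkn1c and Phlda2. Its signal was 10.18, 10.15 and 10.18 in wild type and 10.47, 10.38, 10.38, 10.13 and 10.41 in Mdr2-KO. On the double-knockout arrays it ran from 10.11 through 10.43 to 10.56. Each knockout group had 1 array below the wild-type range, Mdr2-KO array 4 and double-knockout array 5, with all its other arrays above it.

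Slc22a18 averaged 10.17 ± 0.02 (SD, n = 3), 10.35 ± 0.13 (SD, n = 5) and 10.39 ± 0.15 (SD, n = 6). The differences from wild type were 0.19 (SE 0.09) and 0.22 (SE 0.09, 95% interval 0.04 to 0.41), and neither passed. The second passed without double-knockout array 5 and after quantile normalization. The knockout groups differed by 0.04 (SE 0.08), by -0.02 without Mdr2-KO array 4 and by -0.01 after centring on array medians.

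Of 17 measured genes near Slc22a18 or near Slc22a3, another imprinted gene, 3 rose and none fell in Mdr2-KO. The median difference was -0.06, beside -0.07 over all genes, of which 21.0% passed. The count was 1 without wild-type array 1, 0 without wild-type array 3, and 5 without wild-type array 2 or Mdr2-KO array 2. In the double knockout 3 rose and 1 fell against wild type, beside 12.3% of all genes passing (median 0.01 beside -0.02). Against Mdr2-KO 2 were higher and 2 lower, beside 8.76% of all genes passing, with a median of 0.05 beside 0.06. Mas1, counted as higher in both of these comparisons, averaged 4.76, 4.84 and 5.30 in wild type, Mdr2-KO and the double knockout, under the background of 5.48.

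Phlda2, the growth-restraining neighbour of Slc22a18, rose by 1.71 (SE 0.26, adjusted p = 0.000589) in the double knockout, from 6.11 ± 0.33 (SD, n = 3) to 7.82 ± 0.53 (SD, n = 6). In Mdr2-KO it rose by 0.99 (SE 0.27, adjusted p = 0.0173), and the adjusted p reached 0.081 with wild-type array 1 or 3 left out. Dhcr7, an enzyme of cholesterol synthesis, was lower in the double knockout than in Mdr2-KO by 0.45 on the log2 scale (difference -0.45, SE 0.09, adjusted p = 0.0101).

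**Figure D3:**
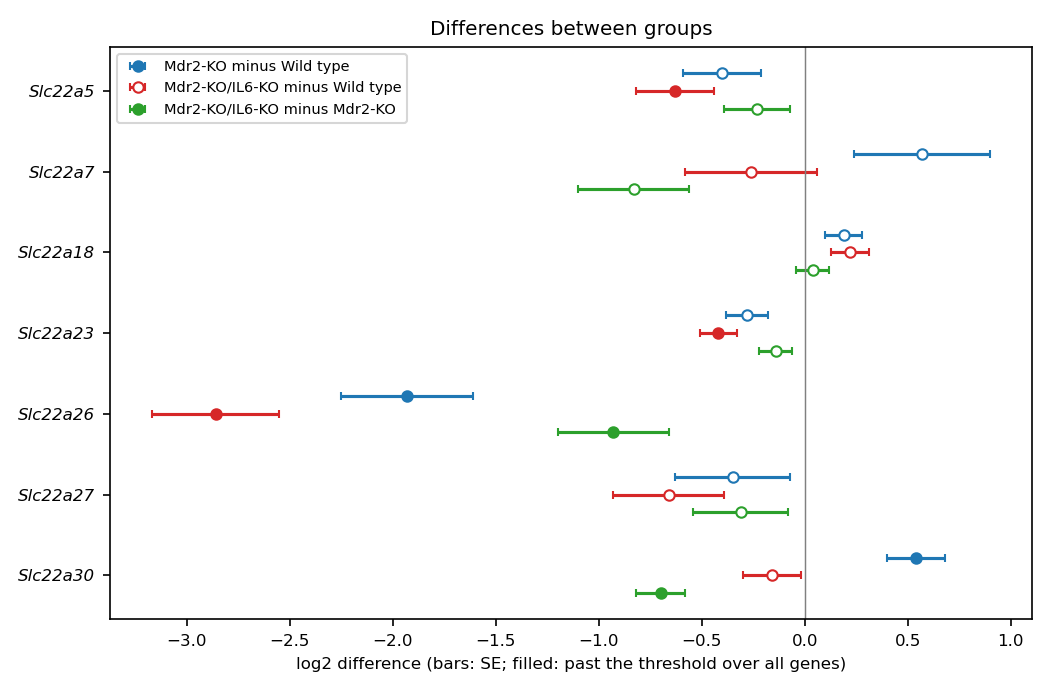
Log2 differences with SE (horizontal axis) of the 7 members in the 3 comparisons, with filled points for those past the threshold over all genes. Slc22a26 has 3 filled points, all below 0, Slc22a30 has 1 on each side of 0 (0.54 and -0.70), and Slc22a5 and Slc22a23 have 1 each, below 0.

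In Mdr2-KO against wild type 2 of the 7 members passed, Slc22a30 higher and Slc22a26 lower. Over all genes 21.0% passed in this comparison, 8.89% higher and 12.1% lower (1772 and 2417 genes, or 1793 and 1763 after quantile normalization). Groups did not overlap for 2 members and for 23.5% of all genes. Without wild-type array 3 the count over all genes was 2140 in place of 4189. The members' median difference was -0.28, beside -0.07 over all genes.

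In the double knockout against wild type 3 of the 7 passed, Slc22a5, Slc22a23 and Slc22a26, all lower, beside 12.3% of all genes (6.96% higher, 5.33% lower). Those are 1388 and 1062 genes, or 1006 and 1573 after centring on array medians. The groups did not overlap for 2 members, and for 15.1% of all genes. The members' median was -0.42, beside -0.02. Against Mdr2-KO 2 of the 7 passed, Slc22a26 and Slc22a30, both lower in the double knockout, beside 8.76% of all genes (5.04% higher, 3.72% lower). Those are 1005 and 741 genes, and the balance turned under other scalings, to 675 and 852 after quantile normalization and 424 and 1056 after centring.

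In the comparison of the 2 knockouts 2 members did not overlap, Slc22a7 and Slc22a30, beside 7.34% of all genes, and the members' median was -0.31 beside 0.06. The count of 1746 genes in that comparison was 754 without Mdr2-KO array 1, 932 without array 3 and 999 without array 4. It was 1055 without double-knockout array 4 and 1045 without array 5. With members chosen on these arrays, nothing is read from these shares.

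Outside the list 16 other Slc22 genes were measured. In Mdr2-KO against wild type 1 of them, Slc22a13b, annotated as a transcribed pseudogene, passed, from 6.22 ± 0.09 (SD, n = 3) to 5.89 ± 0.12 (SD, n = 5), a fall of 0.33 (SE 0.07, adjusted p = 0.00696), beside 21.0% of all genes. The count was 5 without wild-type array 2, 4 without Mdr2-KO array 2, and 2 without Mdr2-KO array 5 or double-knockout array 1. In the double knockout against wild type limma called none of the 16 (adjusted p from 0.342 to 0.958), and 0 had an unadjusted p under 0.05.

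Between the knockout groups Slc22a13b was higher in the double knockout by 0.21 (SE 0.06, adjusted p = 0.0469). This no longer passed without wild-type array 1, without Mdr2-KO array 1, 3, 4 or 5, or without double-knockout array 1, 2, 4, 5 or 6. Differences of the 16 genes lay between -0.33 and 0.21 in all 3 comparisons. Slc22a2, Slc22a14, Slc22a16, Slc22a19 and Slc22a22 had means under background, and none of the 7 members did. Slc22a4, a carrier of ergothioneine, averaged 6.70, 6.65 and 6.82 in the wild-type, single-knockout and double-knockout groups. Slc22a21 lies between it and Slc22a5 on the chromosome and averaged 5.98, 6.06 and 5.99.

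Among 20 other hepatic uptake and efflux carriers 2 rose and 1 fell in Mdr2-KO, beside 21.0% of all genes passing. The median was 0.10 beside -0.07, and 5 of the 20 passed without Mdr2-KO array 3. Abcb1b, a drug efflux pump whose wild-type mean of 5.43 lay at the background, rose by 1.67 (SE 0.15, adjusted p = 6.76e-06) and Abcg2, another, by 0.68 (SE 0.13, adjusted p = 0.00259). Slc10a1, the main bile salt uptake carrier of hepatocytes, fell by 0.36 (SE 0.08, adjusted p = 0.00577).

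Of the 20 carriers 4 rose and 1 fell in the double knockout against wild type, beside 12.3% of all genes passing. The median was -0.01 beside -0.02, and 3 of the 20 passed without wild-type array 1. Abcb1b rose by 1.34 (SE 0.15, adjusted p = 4.28e-05) and Abcg2 by 0.62 (SE 0.13, adjusted p = 0.00463). Against Mdr2-KO 1 was higher and 3 were lower, beside 8.76% of all genes passing (median -0.02 beside 0.06). Leaving out any of 12 of the 14 arrays took the number passing to between 0 and 2. Slco1a1, Slco1a5 and Slco1a6 of this list had means under background, and Slco1a1 was 1 of the 3 lower carriers. Abcc4, an efflux pump of the blood-facing membrane, was higher by 0.79 (SE 0.20, adjusted p = 0.0248, and 0.058 without Mdr2-KO array 1).

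Of 22 measured transcription factors and hormone receptors of the liver, 2 rose and 7 fell in Mdr2-KO, beside 21.0% of all genes passing. The median was -0.11 beside -0.07, and 4 and 5 of the 22 passed without wild-type arrays 1 and 3. Nr1i3, the drug-sensing receptor CAR, fell by 0.93 (SE 0.20, adjusted p = 0.00583). Bcl6, a repressor of growth hormone signalling higher in males, rose by 0.93 (SE 0.24, adjusted p = 0.0149). Cux2, a repressor higher in females, fell by 0.82 (SE 0.20, adjusted p = 0.00906). Bcl6 reached an adjusted p of 0.0621 without wild-type array 1 or 3, and Cux2 0.0537 without wild-type array 1. With only the 2 groups compared Bcl6 did not pass.

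Of the 22 regulators 8 fell in the double knockout against wild type and none rose, beside 12.3% of all genes passing. The median was -0.13 beside -0.02, and 5 of the 22 passed without wild-type array 3. Esr1, the oestrogen receptor, fell by 0.98 (SE 0.15, adjusted p = 0.000578). In the comparison of the 2 knockouts 1 passed, Bcl6, lower by 0.73 on the log2 scale (difference -0.73, SE 0.20, adjusted p = 0.0384). That call was lost under trend and robust moderation and without Mdr2-KO array 1, 2 or 4 or any 1 of the 6 double-knockout arrays (adjusted p up to 0.096). The median was -0.08 beside 0.06, and the count was between 0 and 2 without any of 9 arrays.

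Of 13 measured genes known to be higher in female liver, 10 fell in Mdr2-KO and 10 in the double knockout against wild type. The medians were -2.55 and -2.20 beside -0.07 and -0.02 over all genes, of which 21.0% and 12.3% passed. Sult3a1, a female-biased sulfotransferase, read 9.45, 6.50 and 9.85 in wild type and 2.44, 2.56, 7.06, 2.88 and 2.60 in Mdr2-KO. Its double-knockout values lay between 2.47 and 2.79. It passed as lower in both knockouts (adjusted p = 0.00139 and 0.000374). Its knockout values other than that of Mdr2-KO array 3 lay under the background of 5.48, so no size is given for the fall. Cyp17a1, a steroid-making cytochrome P450, stayed above background on every array and fell by 3.81 (SE 0.61, adjusted p = 0.000813) in Mdr2-KO, and it fell by 4.58 (SE 0.59, adjusted p = 0.000174) in the double knockout. Between the knockout groups limma called none of the 13, and 0 had an unadjusted p under 0.05.

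Of 14 measured genes known to be higher in male liver, 7 rose and 2 fell in Mdr2-KO, and the same counts were found in the double knockout. In the latter 5 passed without wild-type array 3, and 5 rose and 3 fell after centring on array medians. The medians were 0.47 and 0.29, beside -0.07 and -0.02 over all genes, of which 21.0% and 12.3% passed. Cyp2d9, a male-biased cytochrome P450, rose by 1.97 (SE 0.12, adjusted p = 1.41e-07) and 2.02 (SE 0.12, adjusted p = 6.19e-08). In the comparison of the 2 knockouts 2 were lower and none higher (median 0.03 beside 0.06), and the count was 0 or 1 without any of 10 arrays. The 2 were Bcl6 and Slco1a1, and Slco1a1 lay under background in both groups (4.34 in the double knockout, 4.82 in Mdr2-KO). Elovl3, Hsd3b5 and Moxd1 of this list also had means under background.

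Slc22a26 was set beside 5 of the 13 measured female-biased genes over the 14 arrays, picked without a rule. Among them, Sult3a1, Cyp3a16 and Cyp17a1 had the largest passing falls against wild type in both knockouts. A high r over the groups is thus partly fixed by the choice. Its Pearson r was 0.90 with Sult3a1, 0.87 with Cyp17a1, 0.81 with Cyp3a16, 0.78 with A1bg and 0.61 with Cyp2b13. After group means were removed these were 0.59, 0.34, 0.39, 0.21 and 0.03, each lower than before. The r with Sult3a1 rests on the 3 wild-type arrays and Mdr2-KO array 3 against values under background on all other arrays. Cyp3a16 also averaged under the background of 5.48 in both knockouts, at 4.25 in Mdr2-KO and 3.87 in the double knockout. Mdr2-KO array 3 had the highest Sult3a1 (7.06) and the highest Slc22a26 (10.21) of its group. Its summed level of the 13 female-biased genes was the lowest of its group, 11.80 in a range up to 12.69, beside 13.40 to 14.02 in wild type and 11.85 to 12.64 in the double knockout. The part of the female-biased pattern in the Slc22a26 values was not tested. For Slc22a30 the r after group means were removed was of either sign, -0.27 with Sult3a1, -0.45 with Cyp17a1, 0.07 with Cyp3a16, 0.55 with A1bg and 0.47 with Cyp2b13.

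**Figure D4:**
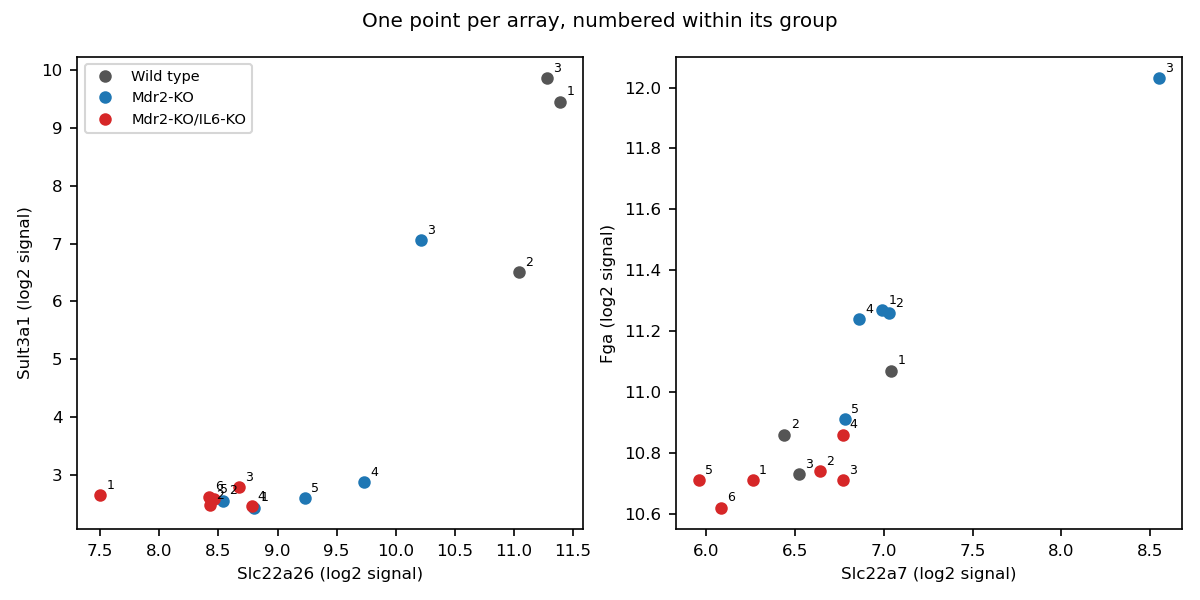
Left, log2 signal of Slc22a26 (horizontal axis) against Sult3a1; right, Slc22a7 against Fga; each point is 1 of the 14 arrays, numbered within its group. Mdr2-KO array 3 stands apart in both panels, at 10.21 and 7.06 on the left and at 8.55 and 12.03 on the right.

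The genes whose signal followed each member most closely were taken from those with a mean at or above the median gene, as a description over 14 arrays that share their group differences. Slc22a26 was followed by Klhl7 and Nr2c1 (r 0.95 each, 0.72 and 0.65 after group means were removed), and Slc22a30 by Myo6 and Rida (0.93 each, 0.73 and 0.83). Slc22a27 was followed by Pgm1 (0.90, then 0.86) and G0s2 (0.85, then 0.83). Slc22a27 and Slc22a29, with Slc22a28 between them on the chromosome, had an r of 0.81, or 0.79 after group means were removed. Mdr2-KO array 4 was the highest of its group for both, at 9.19 and 7.01.

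Slc22a7 was followed by Fga, a fibrinogen chain (0.92, then 0.89), and by Zswim5 (0.89, then 0.87). Fga read 11.27, 11.26, 12.03, 11.24 and 10.91 in Mdr2-KO and 11.07, 10.86 and 10.73 in wild type. It lay between 10.62 and 10.86 in the double knockout, below all Mdr2-KO arrays, as Slc22a7 did. Without the 2 arrays farthest from the median of Slc22a7 the r with Fga was 0.79.

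Slc22a5 was followed by Eci2, an enzyme of fatty acid oxidation, and Vwa8 (0.90 each, 0.84 and 0.88 after group means were removed). Slc22a23 was followed by Shmt1, a serine and glycine enzyme, and Acss2, which makes acetyl-CoA from acetate (0.91 each, 0.78 and 0.73). Slc22a18 was followed by 2310061I04Rik (0.88, then 0.85) and Lrtm2 (0.85, then 0.75). Among the 21 pairs of members r after removal of group means lay between -0.30 and 0.60, with a median of 0.21.

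Markers of other liver cells also moved between the groups. The counts below stand beside 21.0% of all genes passing in Mdr2-KO and 12.3% in the double knockout against wild type. Between the knockout groups that share was 8.76%. Of 10 bile duct markers 5 rose in Mdr2-KO and 8 in the double knockout against wild type, and none passed between the knockout groups, where 2 had an unadjusted p under 0.05 and 1 passed without Mdr2-KO array 5 or double-knockout array 1. Their summed level was 9.67 to 10.15 in wild type, 10.59 to 11.35 in Mdr2-KO and 10.60 to 11.65 in the double knockout. Of the bile duct markers only Cftr had a mean under background. Of 10 stellate cell and fibroblast markers 4 and 5 rose against wild type, with sums of 12.18 to 12.31, 11.98 to 12.62 and 12.29 to 12.74. Those 2 counts were 2 and 2 without wild-type array 1, and 1 and 3 without wild-type array 3. The second was also 3 without wild-type array 2 or double-knockout array 4 or 5.

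Of 9 measured lymphocyte markers 3 fell in Mdr2-KO and 5 in the double knockout, but 1 and 0 did without wild-type array 2. The second count was 1, 2, 3 and 2 without double-knockout arrays 2, 3, 4 and 6. Of 10 macrophage markers 2 rose and 1 fell in Mdr2-KO, and 3 rose and 1 fell in the double knockout, where 1 and 2 passed without wild-type arrays 1 and 3. Of 8 endothelial markers 1 rose in each, and the count in Mdr2-KO was between 0 and 2 without any of 10 arrays. After quantile normalization 2 of the 8 fell in Mdr2-KO and none rose. Against Mdr2-KO 2 macrophage markers were higher in the double knockout, and 1 lower and none higher after centring on array medians, with 0 or 1 passing without any of 11 arrays. None of the stellate, lymphocyte and endothelial markers passed there, and 1 of each had an unadjusted p under 0.05. Of the 12 hepatocyte markers 1 fell in Mdr2-KO, Apoa2 by 0.21 (SE 0.06, adjusted p = 0.0288, and up to 0.095 without wild-type array 1 or 3 or Mdr2-KO array 3 or 4). Apoa2 also did not pass with only the 2 groups compared, or without both wild-type array 2 and Mdr2-KO array 3. None of the 12 hepatocyte markers passed in the double knockout against wild type, where 0 had an unadjusted p under 0.05. The part of these cell markers in the Slc22 differences was not tested.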

How the data were processed

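Per the submitters' processing notes the arrays were processed with Partek and RMA, and the deposited values are on a log2 scale. The sources used here give neither versions nor a genome build. Of 35557 probes, 21789 name 1 gene in the platform annotation, 1621 several and 12147 none. Gene IDs matched RefSeq for 21698 probes, which took the RefSeq symbol, and the others kept their listed symbol. The probe with the highest mean stood for a gene with several (999 genes).

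One limma model (limma 3.58.1, R 4.3.3) of 3 group means over all 14 arrays was fitted to 19938 genes, with eBayes and Benjamini-Hochberg adjustment, 2-sided, at adjusted p 0.05, and was checked on simulated data. The number of arrays limits the precision. Named genes were the members, all other Slc22 genes, Abcb4, Il6, up to 3 passing genes of largest difference per list and comparison, and the 2 genes most alike each member. Other genes are named from the marker lists or because a statement counted them. Arrays of knockout groups are numbered in accession order. Members and lists were chosen with earlier results of these data known. RefSeq promoters (GRCm38.p6) were found for 8 of the 9 members. Alternatives covered scaling, probe choice, filter, moderation, array weights, the arrays fitted and single arrays left out.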

Additional observations from a re-analysis of the deposited data

Results flagged for a closer look

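The values of the 23 Slc22 genes in both knockout genotypes made 46 groups, and the wild-type groups were left out. In 7 of the 46 groups 1 array stood apart from the others of its genotype by Dixon's criterion at 95%. For independent groups chance meets this in about 1 in 20, but these groups share their arrays. Slc22a7 read 8.55 on Mdr2-KO array 3, where the other 4 lay between 6.78 and 7.03. Slc22a18 read 10.13 on Mdr2-KO array 4, beside 10.38 to 10.47, and 10.11 on Mdr2-KO/IL6-KO array 5, beside 10.41 to 10.56. Slc22a26 read 7.50 on Mdr2-KO/IL6-KO array 1, beside 8.42 to 8.78. Among the genes outside the list, Slc22a29 read 7.01 on Mdr2-KO array 4, beside 6.10 to 6.36. Slc22a13b read 5.97 on Mdr2-KO/IL6-KO array 3, beside 6.09 to 6.15. Slc22a21 read 6.18 on Mdr2-KO/IL6-KO array 5, beside 5.89 to 5.99.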

How the results depend on the processing

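Of 462 values of the members' 21 differences under the alternatives, 427 kept direction and call, 23 lost the call, 10 gained it and 2 reversed. The reversals were Slc22a18 in Mdr2-KO/IL6-KO minus Mdr2-KO, at -0.01 after centring on array medians and -0.02 without Mdr2-KO array 4, and single arrays left out gave up to 0.10. With a fold of at least 1.5 required, 799 genes passed in Mdr2-KO minus wild type, 748 in Mdr2-KO/IL6-KO minus wild type and 150 in Mdr2-KO/IL6-KO minus Mdr2-KO. With 1 array left out the counts were 2140 to 4507, 1635 to 2544 and 754 to 2164. With both wild-type array 2 and array 3 of Mdr2-KO left out, a choice made after seeing the data, 970 genes passed between the knockout groups. The other Slc22 genes gave 2 calls in Mdr2-KO minus wild type with array weights or without that pair of arrays, and 1 to 5 with 1 array left out. Between the knockout groups they gave 0 calls after quantile normalization, centring, trend and robust moderation or without that pair, and 0 to 1 with 1 array left out. The cause of these shifts was not tested. No paired analysis was possible because the labels give the groups no shared replicate numbers.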
